A study of Mus musculus with 9 samples.

Results

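The genes described here are 41 genes of mitosis and of the G2/M transition, followed in RAW 264.7 macrophages loaded with lipid emulsion particles. They were taken by symbol from a list of genes known for these roles, and all 41 symbols were found among the 54432 genes of the deposited table. All 41 also passed the filter on low counts and were among the 12637 genes tested. RAW 264.7 is a mouse macrophage-like line that divides in culture, and RNAseq was performed on 9 libraries of it. The 3 control libraries came from untreated cells, 3 libraries from cells given VLDL-sized emulsion particles and 3 from cells given CHYL-sized emulsion particles, which are larger and named after chylomicrons. Both emulsions were artificial lipid particles given, per the labels, at 1 mM for 6 hours. A legend of the study gives a lower dose for CHYL-sized particles in RNAseq, so an equal dose rests on the labels. No library came from cells given an emulsion-free vehicle among the samples analysed here, so particle size and lipid content were compared only with untreated cells and with each other. The methods describe biological and technical repeats whose samples were combined within an experiment, and the p-values below measure only the spread between these libraries.

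Cells that have copied their DNA pass through G2 and enter mitosis when cyclin-dependent kinase 1 is switched on by cyclins A and B. Polo-like and Aurora kinases then build the spindle, kinetochores attach the chromosomes to it, the spindle checkpoint holds back the anaphase-promoting complex until all are attached, and the central spindle and a contractile ring divide the cell. Most of these genes are transcribed mainly in G2 and M, under the transcription factors B-MYB, FOXM1 and the MuvB complex, so their RNA is widely used as a readout of dividing cells. In RNA from a whole culture, fewer cells in G2 and M cannot be told apart from less of these RNAs in each cell.

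Depth was even, from 22393893 to 22856792 estimated counts per library, and the lowest count of any of the 41 genes in a library was 246. Levels are given as cpm, counts scaled to library size by TMM normalization. The first principal component (43.5% of the variance) separated control from treated libraries, and the second (13.8%) set the replicate 3 library of every group, at -22.9, -17.7 and -20.7, apart from the other 6 libraries, at 6.1 to 16.1. Of the 41 genes, 11 (Ccnb1, Ccnb2, Ccnf, Nek2, Tpx2, Birc5, Cdca8, Mad2l1, Cdc20, Cenpa and Hmmr) were highest in replicate 3 of all 3 groups, as were 18.8% of all genes tested. Counts without these libraries are therefore given beside the main ones. All 10 macrophage markers examined were expressed, with summed levels of 8787 to 9136 cpm in control cells, 7640 to 8308 cpm after VLDL-sized and 7821 to 8404 cpm after CHYL-sized particles. Of these markers, 6 were lower and 2 higher after VLDL-sized particles, and 3 were lower after CHYL-sized particles, and their part in the results below was not tested. Markers of fibroblasts summed to at most 2.51 cpm, those of lymphocytes to at most 0.219 cpm, and all 5 epithelial markers were at 0.

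Most of the genes were lower after either emulsion, and none rose. After VLDL-sized particles 32 of the 41 genes fell and 0 rose (limma-voom, adjusted p under 0.05), where 17.9% of all genes tested were lower and 17.8% higher. After CHYL-sized particles 31 of 41 fell and 0 rose, where 13.0% of all genes tested were lower and 12.7% higher. The median log2 fold change of the 41 genes was -0.35 after VLDL-sized and -0.27 after CHYL-sized particles, beside -0.0003 and 0.0013 over all genes tested. The changes were small in size. Genes that fell were 10.7% to 39.7% below control after VLDL-sized particles, with a median of 23.3%, and 12.5% to 31.6% below control after CHYL-sized particles, with a median of 19.2%. Together the 41 genes summed to 6401 to 6691 cpm in the control libraries, 5307 to 5587 cpm after VLDL-sized and 5472 to 5594 cpm after CHYL-sized particles, and the treated sums did not overlap the control sums. With scaling by library size alone 35 of the 41 genes fell after each emulsion and 0 rose, where 26.2% and 19.9% of all genes tested were lower. The share of all called genes that were higher went from 49.9% to 31.3% after VLDL-sized and from 49.6% to 29.8% after CHYL-sized particles under that scaling.

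**Figure D1:**
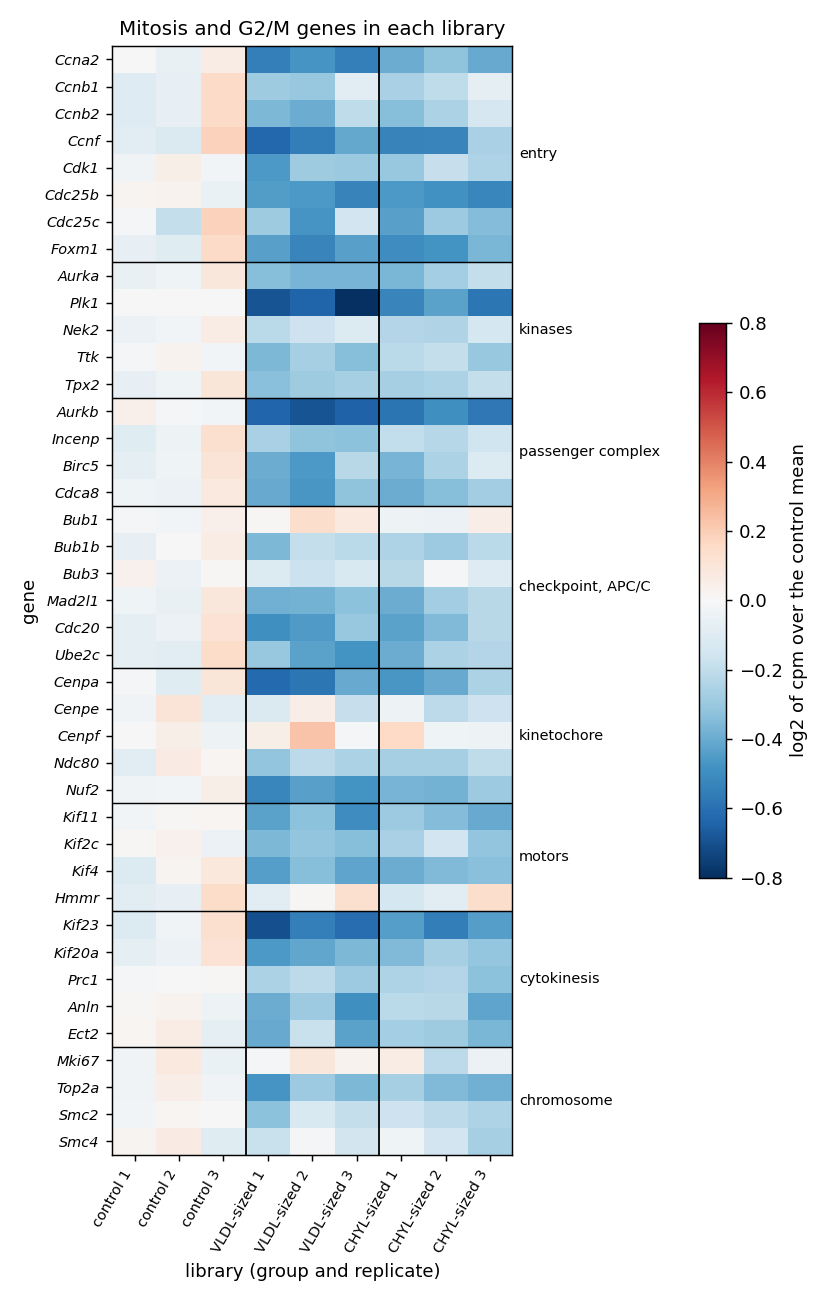
Level of each of the 41 genes in each of the 9 libraries, as log2 cpm relative to the gene's mean in the 3 control libraries (colour), with genes in rows by role and libraries in columns by group. Most rows are lower in all 6 treated libraries, while Mki67, Bub1, Cenpf and Hmmr show no such shift.

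The 2 comparisons with untreated cells share the same 3 control libraries and are given side by side for that reason. Of the 41 genes, 30 fell after both emulsions, 2 (Ccnb2 and Birc5) passed only after VLDL-sized, 1 (Cdc25c) passed only after CHYL-sized particles, and 8 passed in neither comparison. In the direct test between the emulsions, none of the 3 genes that passed only once was called. The 8 were Ccnb1, Bub1, Bub3, Cenpe, Cenpf, Hmmr, Mki67 and Smc4. In 33 of the 41 genes all 3 VLDL-sized libraries lay below all 3 control libraries, as did 23.7% of all genes tested. The same held for CHYL-sized libraries in 33 of 41 genes, beside 20.9% of all genes tested. Without the 3 replicate 3 libraries, 33 genes fell after VLDL-sized particles, with a background of 21.0%, and 33 after CHYL-sized particles, with a background of 15.9%. The medians were then -0.33 and -0.25 on the log2 scale.

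The promoters of these genes carry letters that mark many G2/M genes. TTTGAA is the core of the cell cycle homology region, bound by the MuvB complex, and CCAAT is the box bound by NF-Y. RefSeq promoter windows of 250 bases before to 50 bases after the start (build GRCm38.p6) were given for 33 of the 41 genes, and both motifs were searched on both strands. TTTGAA was present in 25 of the 33 windows (75.8%) beside 18.1% of all 27025 windows of that length, and CCAAT in 27 (81.8%) beside 37.9%. Both were present in 22 (66.7%) beside 7.1%, and 19 windows (57.6%) held 2 or more CCAAT boxes beside 12.2%. Of the 33 matches to TTTGAA in these windows, 23 lay in the 30 bases before or the 50 bases after the start. When the window was restricted to the bases before the start, TTTGAA was found in 36.4% of the genes' promoters and 16.3% of all promoters.

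Promoters of 5 genes are shown to set the letters of genes that fell beside those of genes that did not pass the test. Each is the 150 bases before the RefSeq start, 5′ to 3′ on the gene's strand in GRCm38.p6, with TTTGAA and CCAAT matches on either strand in capitals (TTCAAA and ATTGG on the other strand). They were chosen after their letters had been seen. Cdk1 lies at chr10:69352913-69353062 (minus strand), Cdc20 at chr4:118437344-118437493 (minus strand), Top2a at chr11:99024190-99024339 (minus strand), Mki67 at chr7:135716380-135716529 (minus strand) and Bub1 at chr2:127831860-127832009 (minus strand).
Cdk1: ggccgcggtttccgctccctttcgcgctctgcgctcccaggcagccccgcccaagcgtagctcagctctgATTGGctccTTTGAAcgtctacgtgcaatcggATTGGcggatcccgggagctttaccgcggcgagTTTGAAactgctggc
Cdc20: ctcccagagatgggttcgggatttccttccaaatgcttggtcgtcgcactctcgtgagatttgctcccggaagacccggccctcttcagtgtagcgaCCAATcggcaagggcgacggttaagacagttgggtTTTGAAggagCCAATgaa
Top2a: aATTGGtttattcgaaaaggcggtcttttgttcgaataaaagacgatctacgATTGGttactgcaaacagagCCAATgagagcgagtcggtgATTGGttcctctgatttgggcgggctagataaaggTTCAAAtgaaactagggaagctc
Mki67: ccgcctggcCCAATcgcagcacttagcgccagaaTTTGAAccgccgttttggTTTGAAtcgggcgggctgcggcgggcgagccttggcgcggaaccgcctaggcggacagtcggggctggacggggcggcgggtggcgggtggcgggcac
Bub1: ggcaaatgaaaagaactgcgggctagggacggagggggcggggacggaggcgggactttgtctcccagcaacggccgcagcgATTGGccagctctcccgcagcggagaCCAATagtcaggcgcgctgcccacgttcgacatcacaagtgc

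Cdk1, Cdc20 and Top2a, all of which fell, held a TTTGAA at 15, 18 and 23 bases before the start, respectively, with at least 1 CCAAT upstream of it. In Mki67, which did not pass the test, TTTGAA lay 98 and 116 bases before the start. Bub1, which did not pass either, held CCAAT 42 and 68 bases before the start and no TTTGAA in the window. Other genes went the other way. Cenpf and Hmmr, which did not pass, held TTTGAA 2 and 8 bases after the start, whereas Nuf2 and Cdc25b, which fell, held none. Kif2c, which fell, held it only 103 bases before the start, and Mad2l1, which also fell, held none. In the windows of Kif2c, Mad2l1, Aurka, Kif11, Kif23 and Smc2 the last 30 bases were not found in a transcript of the gene. They were found in the other 27 of the 33 windows. The listed starts of all the genes just named are therefore uncertain. Aurka, Kif11, Kif23 and Smc2 fell after both emulsions and held TTTGAA near the listed start, so they count among the 22 genes below. Of the 22 genes with TTTGAA in the 30 bases before or the 50 after the start, 20 fell after VLDL-sized and 19 after CHYL-sized particles, beside 6 and 5 of the 11 others. The bound of 30 bases was not fixed beforehand, and the difference between these counts was not tested. Over all 33 genes and the whole window, the median log2 fold change was -0.35 for the 25 genes with TTTGAA and -0.29 for the 8 without it after VLDL-sized particles, and -0.27 and -0.22 after CHYL-sized particles. A match is a description of letters and does not show that a factor was bound.

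**Figure D2:**
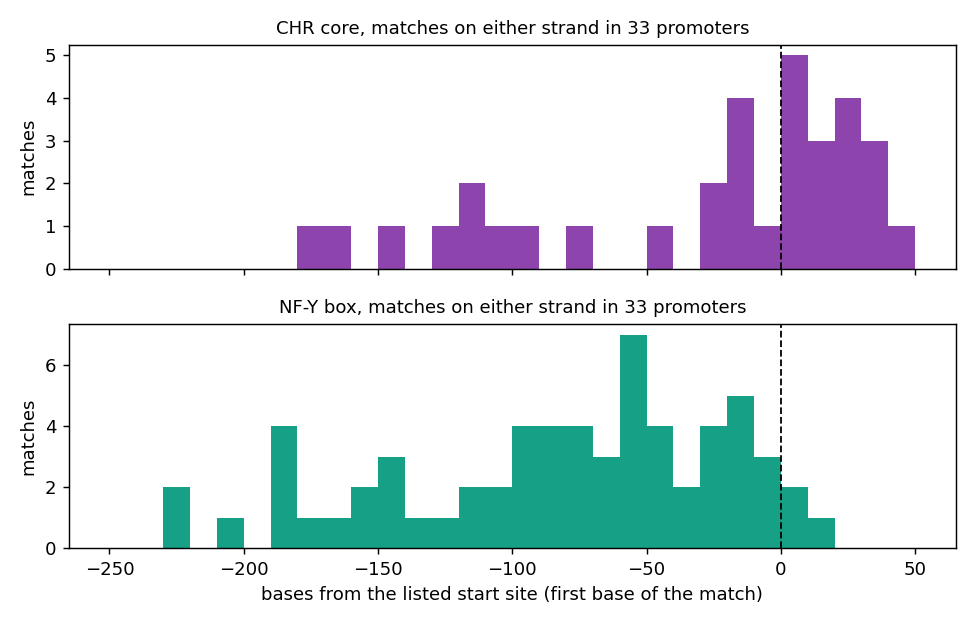
Number of matches to TTTGAA (CHR core, upper panel) and CCAAT (NF-Y box, lower panel) on either strand in the 33 promoter windows, by distance in bases from the RefSeq start to the first base of the match (x axis, negative before the start, dashed line at the start). TTTGAA matches gather around the start, where 23 of 33 lie, while 60 of the 63 CCAAT matches lie before it.

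Among the genes of mitotic entry, 6 of 8 fell after each emulsion, with median log2 fold changes of -0.40 and -0.36. Beside this count and those of each role group below, 17.9% of all genes tested were lower after VLDL-sized and 13.0% after CHYL-sized particles. Ccna2 (ENSMUSG00000027715, chr3:36564865-36572150, GRCm38) encodes cyclin A2, which acts in S phase and at entry into mitosis. It was at 328, 317 and 344 cpm in control cells, 226, 238 and 226 cpm after VLDL-sized and 251, 263 and 249.3 cpm after CHYL-sized particles. Every treated library was below every control library, and the VLDL-sized libraries were also all below the CHYL-sized ones. The log2 fold changes were -0.52 (SE 0.0489, adjusted p = 2.2e-05) and -0.37 (SE 0.0489, adjusted p = 0.00033). Per kb of its longest coding transcript, Ccna2 had the highest control level of the 41 genes, 111 cpm per kb, and Cdc25c the lowest, 7.88 cpm per kb.

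Cdk1 (ENSMUSG00000019942, chr10:69335146-69352938), the kinase that drives entry, was at 119, 125 and 119 cpm in control cells, 88.1, 99.5 and 98.4 cpm after VLDL-sized and 98.0, 106 and 102 cpm after CHYL-sized particles. The groups did not overlap with control, at log2 fold changes of -0.34 (adjusted p = 0.0010) and -0.25 (adjusted p = 0.010). Foxm1 (ENSMUSG00000001517, chr6:128362967-128376146), a transcription factor for G2/M genes, was at 159, 156 and 186 cpm in control cells, 124, 116 and 124 cpm after VLDL-sized and 118, 119.9 and 129.7 cpm after CHYL-sized particles. Its control replicate 3 was the highest library, and its 2 log2 fold changes of -0.46 (adjusted p = 0.00054) and -0.44 (adjusted p = 0.0012) were close in size. Cdc25b, a phosphatase that activates CDK1, was at 66.6, 66.8 and 63.2 cpm in control cells, 48.1, 47.6 and 45.2 cpm after VLDL-sized and 47.6, 46.9 and 45.7 cpm after CHYL-sized particles, a drop of 28.3% and 28.7%.

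Ccnb1, the B-type cyclin partner of CDK1, did not pass in either comparison. Its levels were 115, 118 and 138 cpm in control cells, 101, 100.2 and 116 cpm after VLDL-sized and 103, 107 and 118 cpm after CHYL-sized particles. Replicate 3 was the highest library of each group and the only treated library to reach the control range, and the log2 fold changes were -0.22 (adjusted p = 0.059) and -0.17 (adjusted p = 0.15). Without the 3 replicate 3 libraries both passed, at -0.21 (adjusted p = 0.0028) and -0.15 (adjusted p = 0.028). Ccnb2, the other B-type cyclin, fell from 102 ± 9.95 cpm to 81.6 ± 5.76 cpm after VLDL-sized particles (SD, n = 3) and stood at 86.1 ± 6.27 cpm after CHYL-sized particles (adjusted p = 0.054, limma-voom). Its call after VLDL-sized particles (adjusted p = 0.012) missed the threshold when VLDL-sized replicate 2 was left out (adjusted p = 0.051). Without the replicate 3 libraries Ccnb2 also passed after CHYL-sized particles (adjusted p = 0.0057). Ccnf, which encodes the substrate-binding F-box protein cyclin F, fell from 85.8 ± 10.1 to 59.6 ± 4.57 and 63.6 ± 7.14 cpm. Cdc25c, another CDK1 phosphatase and the lowest of the group in cpm, stood at 15.3 ± 2.00, 12.5 ± 1.36 and 12 ± 0.601 cpm, with adjusted p of 0.068 and 0.046 from limma-voom. The second of these calls was lost on leaving out any 1 of 5 libraries, all but control replicate 2, at adjusted p of 0.078 to 0.13, and also, at 0.073, without the replicate 3 libraries.

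All 5 mitotic kinases and spindle assembly genes fell after both emulsions, with medians of -0.32 and -0.24. Plk1 (ENSMUSG00000030867, chr7:122159439-122169873), the Polo-like kinase of centrosome maturation and spindle assembly, showed the largest drop of the 41 genes after VLDL-sized particles. It was at 123, 122 and 122 cpm in control cells, 75.9, 78.4 and 67.5 cpm after VLDL-sized and 84.8, 90.9 and 81.9 cpm after CHYL-sized particles. No groups overlapped, including the 2 emulsions, and the drop was 39.7% (log2 fold change -0.73, SE 0.0623, adjusted p = 1.2e-05) and 29.9% (-0.51, SE 0.0616, adjusted p = 0.00019).

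Aurka, the Aurora kinase of the spindle poles, was at 114, 116 and 126 cpm in control cells, 94.0, 91.8 and 92.0 cpm after VLDL-sized and 92.4, 98.6 and 104 cpm after CHYL-sized particles. Ttk, the spindle checkpoint kinase MPS1, was at 64.4, 65.9 and 63.7 cpm in control cells, 50.4, 53.7 and 51.1 cpm after VLDL-sized and 55.6, 56.7 and 52.4 cpm after CHYL-sized particles. In both genes every treated library lay below every control library, with log2 fold changes of -0.36 and -0.27 for Aurka and -0.32 and -0.24 for Ttk. Tpx2, which activates AURKA on the spindle, fell from 233 ± 14.2 to 190.0 ± 4.87 and 198 ± 5.44 cpm. Nek2, a kinase of centrosome separation, had the smallest drop of those that passed after VLDL-sized particles, from 93.6 ± 3.68 to 83.6 ± 3.05 and 81.3 ± 3.10 cpm. Its call after VLDL-sized particles (adjusted p = 0.032) was lost without control replicate 2, control replicate 3, VLDL-sized replicate 1 or VLDL-sized replicate 2, at adjusted p of 0.065 to 0.11. After CHYL-sized particles (adjusted p = 0.016) it was lost without CHYL-sized replicate 1 or 2, at 0.053 and 0.059.

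**Figure D3:**
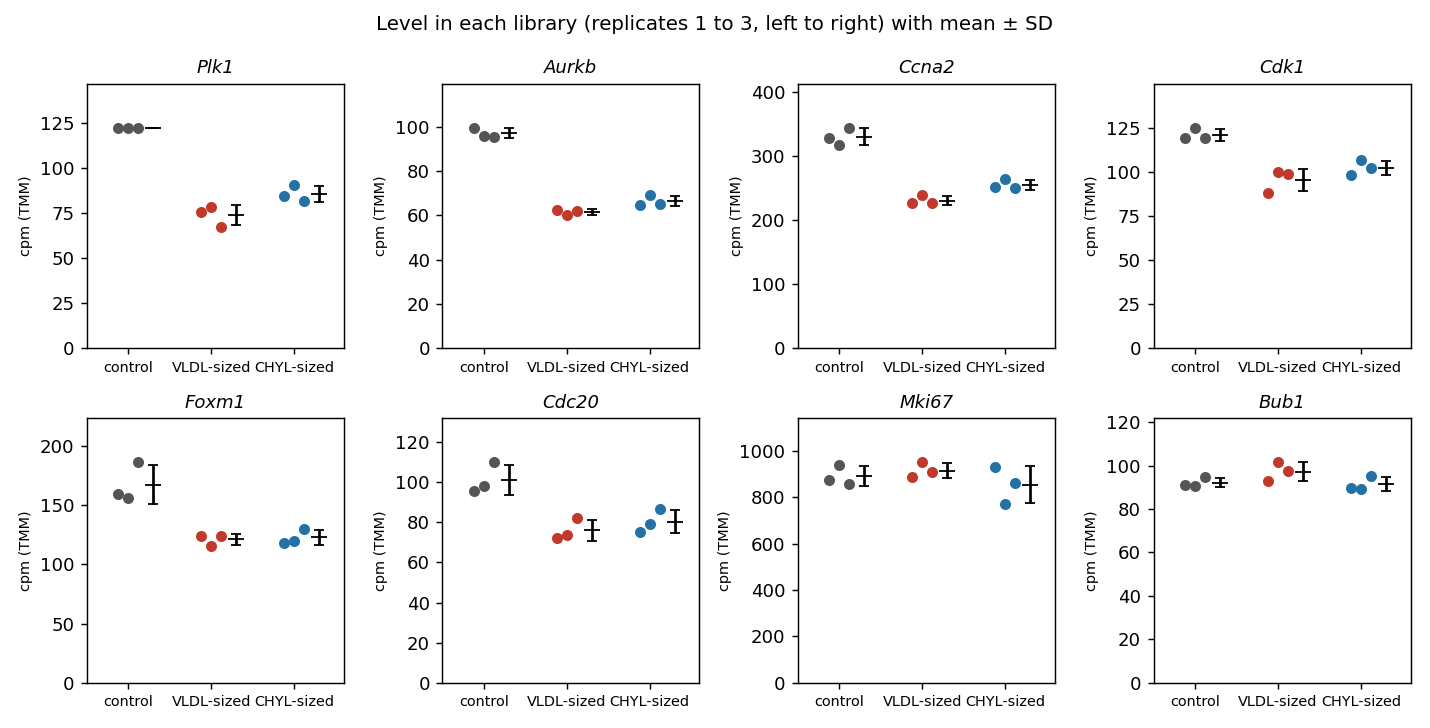
TMM-normalized cpm of 8 genes in each library (points) with the group mean and SD (n = 3) for control, VLDL-sized and CHYL-sized particles. Plk1, Aurkb, Ccna2, Cdk1, Foxm1 and Cdc20 are lower in every treated library than in any control library, while the groups overlap in Mki67 and Bub1.

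The chromosomal passenger complex, which corrects faulty attachments and later guides cytokinesis, was lower in all 4 of its genes after VLDL-sized particles (median log2 fold change -0.38), and 3 of 4 passed after CHYL-sized particles (median -0.29). Aurkb (ENSMUSG00000020897, chr11:69045647-69051664), its kinase, had the smallest adjusted p of the 41 genes in both comparisons. It was at 99.7, 96.0 and 95.6 cpm in control cells, 62.5, 60.2 and 62.1 cpm after VLDL-sized and 64.8, 69.3 and 65.4 cpm after CHYL-sized particles. The libraries of each group were tight and the groups did not overlap, with log2 fold changes of -0.66 (SE 0.0478, adjusted p = 4.1e-06) and -0.55 (SE 0.0474, adjusted p = 2.1e-05). Cdca8, which encodes the subunit borealin, was at 109.9, 109 and 119 cpm in control cells, 85.3, 81.6 and 89.9 cpm after VLDL-sized and 85.5, 88.9 and 93.0 cpm after CHYL-sized particles, again with no overlap with control. The scaffold Incenp fell from 225 ± 18.6 to 182 ± 4.8 and 196 ± 4.38 cpm (adjusted p = 0.0028 and 0.036, limma-voom). The second of these calls was lost on leaving out any 1 of 5 libraries, all but control replicate 1, at adjusted p of 0.056 to 0.11. Birc5, which encodes the subunit survivin, fell from 111 ± 7.45 to 86.7 ± 7.53 cpm after VLDL-sized particles and stood at 94.0 ± 8.51 cpm after CHYL-sized particles (adjusted p = 0.053, limma-voom, and 0.0026 without the replicate 3 libraries).

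In the spindle checkpoint and the anaphase-promoting complex, 4 of 6 genes fell after each emulsion, with medians of -0.31 and -0.27. Cdc20 (ENSMUSG00000006398, chr4:118432901-118437352), the activator of the anaphase-promoting complex and the target of the checkpoint, was at 95.8, 97.9 and 109.8 cpm in control cells, 72.1, 73.9 and 82.0 cpm after VLDL-sized and 75.2, 79.3 and 86.6 cpm after CHYL-sized particles. Replicate 3 was the highest library of each group, yet no treated library reached the lowest control library, and the log2 fold changes were -0.41 (adjusted p = 0.0016) and -0.33 (adjusted p = 0.0080). Ube2c, the ubiquitin-conjugating enzyme of the complex, fell from 162 ± 15.0 to 122 ± 7.60 and 132 ± 7.89 cpm, and the second call (adjusted p = 0.017) was lost without CHYL-sized replicate 1 (adjusted p = 0.066). Mad2l1, which encodes the checkpoint protein MAD2, fell from 172 ± 9.81 to 134 ± 2.92 and 140.0 ± 8.54 cpm, and the checkpoint kinase-like gene Bub1b from 126 ± 5.42 to 106 ± 6.46 and 106 ± 2.88 cpm.

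The other two checkpoint genes did not pass. Bub1, the checkpoint kinase, was at 91.0, 90.7 and 94.7 cpm in control cells, 92.8, 101 and 97.4 cpm after VLDL-sized and 89.7, 89.3 and 95.4 cpm after CHYL-sized particles. The groups overlapped, and the 95% interval of the log2 fold change was -0.04 to 0.19 after VLDL-sized and -0.12 to 0.10 after CHYL-sized particles, which does not reach the median of the 41 genes in either comparison. Bub3, which carries BUB1 to kinetochores, stood at 209 ± 6.11, 190.4 ± 4.63 and 194 ± 14.2 cpm (adjusted p = 0.094 and 0.19, limma-voom).

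Among the kinetochore genes 3 of 5 fell after each emulsion, with medians of -0.26 and -0.24. Nuf2, a subunit of the NDC80 complex that binds microtubules, was at 112, 113 and 118 cpm in control cells, 79.7, 84.5 and 82.1 cpm after VLDL-sized and 88.2, 87.8 and 93.5 cpm after CHYL-sized particles. Its log2 fold changes of -0.48 (adjusted p = 3.6e-05) and -0.35 (adjusted p = 0.00047) were larger than those of its partner Ndc80, which fell from 70.8 ± 3.75 to 59.2 ± 2.17 and 59.8 ± 1.58 cpm (-0.26 and -0.24). The difference between the partners was not tested. Cenpa, the histone H3 variant of centromeres, was at 64.9, 61.2 and 70.0 cpm in control cells, 42.4, 43.8 and 49.4 cpm after VLDL-sized and 47.4, 49.5 and 54.9 cpm after CHYL-sized particles, with all treated libraries below control. Cenpe, a kinetochore motor, and Cenpf, a large kinetochore protein, did not pass, and stood at 149.6 ± 10.3, 142 ± 12.1 and 136 ± 8.23 cpm and at 107 ± 3.25, 114 ± 10.1 and 109 ± 8.81 cpm.

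Of the spindle motors and microtubule proteins, 3 of 4 fell after each emulsion, with medians of -0.37 and -0.29. Kif11, the Eg5 motor that pushes spindle poles apart, was at 184, 188 and 189 cpm in control cells, 139, 149 and 132 cpm after VLDL-sized and 153, 147 and 142 cpm after CHYL-sized particles. Kif2c, a microtubule-depolymerizing kinesin, was at 63.2, 64.3 and 60.8 cpm in control cells, 48.9, 50.4 and 49.6 cpm after VLDL-sized and 52.4, 56.5 and 50.4 cpm after CHYL-sized particles. Kif4, the chromokinesin, was at 53.4, 58.4 and 61.0 cpm in control cells, 42.4, 45.5 and 43.0 cpm after VLDL-sized and 43.8, 45.1 and 45.7 cpm after CHYL-sized particles. In all 3 motors the control libraries were above all 6 treated libraries, with log2 fold changes of -0.42, -0.34 and -0.40 after VLDL-sized and -0.35, -0.24 and -0.36 after CHYL-sized particles. Hmmr, a spindle-associated hyaluronan receptor, did not pass, at 116 ± 10.8, 118 ± 9.16 and 115 ± 12 cpm.

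All 5 genes of cytokinesis fell after both emulsions, with medians of -0.39 and -0.31. Kif23 (ENSMUSG00000032254, chr9:61915905-61946774), the kinesin of the centralspindlin complex, was at 81.0, 85.6 and 95.3 cpm in control cells, 53.6, 59.8 and 57.3 cpm after VLDL-sized and 64.3, 59.6 and 64.3 cpm after CHYL-sized particles. Its drop of 34.7% (log2 fold change -0.61, adjusted p = 8.2e-05) and 28% (-0.47, adjusted p = 0.00068) was the third largest of the 41 genes after VLDL-sized particles. Kif20a, a midzone kinesin, was at 147, 149 and 167 cpm in control cells, 112, 116 and 120.1 cpm after VLDL-sized and 121, 128 and 125 cpm after CHYL-sized particles. Again no treated library overlapped control. Prc1, which bundles midzone microtubules, fell from 168 ± 0.883 to 142 ± 3.94 and 139.7 ± 5.04 cpm. The contractile ring gene Anln, which encodes anillin, fell from 179 ± 4.12 to 136 ± 9.38 and 147 ± 11.6 cpm, and Ect2, the exchange factor that activates RhoA there, from 101 ± 4.63 to 80.5 ± 7.95 and 82.0 ± 2.93 cpm.

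Genes of chromosome structure divided evenly, with 2 of 4 lower after each emulsion and medians of -0.16 and -0.18. Top2a (ENSMUSG00000020914, chr11:98992943-99024189), the topoisomerase that untangles sister chromatids, was at 512, 541 and 512 cpm in control cells, 376, 427 and 407 cpm after VLDL-sized and 434, 408 and 400.1 cpm after CHYL-sized particles. The treated libraries were all below control, at log2 fold changes of -0.37 (adjusted p = 0.00053) and -0.33 (adjusted p = 0.0018). Mki67 (ENSMUSG00000031004, chr7:135689784-135716361), which encodes the proliferation antigen Ki-67 of the chromosome surface, was at 874, 940.1 and 859 cpm in control cells, 886, 950.0 and 907 cpm after VLDL-sized and 928, 771 and 863 cpm after CHYL-sized particles. All groups overlapped. The log2 fold changes were 0.04 (95% interval -0.11 to 0.19, and -0.06 with scaling by library size alone) and -0.06 (-0.22 to 0.09), and the interval of neither comparison reached the median of the 41 genes. The condensin subunit Smc2 fell from 177 ± 2.44 to 153 ± 11.1 and 153 ± 4.17 cpm, while its partner Smc4, at 290.3 ± 16.5, 269 ± 15.7 and 262 ± 21.1 cpm, did not pass. The difference between Smc2 and Smc4 was not tested, and the 95% intervals of their log2 fold changes overlapped in both comparisons. The call of Smc2 after CHYL-sized particles (adjusted p = 0.020) was lost without control replicate 2, CHYL-sized replicate 2 or CHYL-sized replicate 3, at adjusted p of 0.056 to 0.065.

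**Figure D4:**
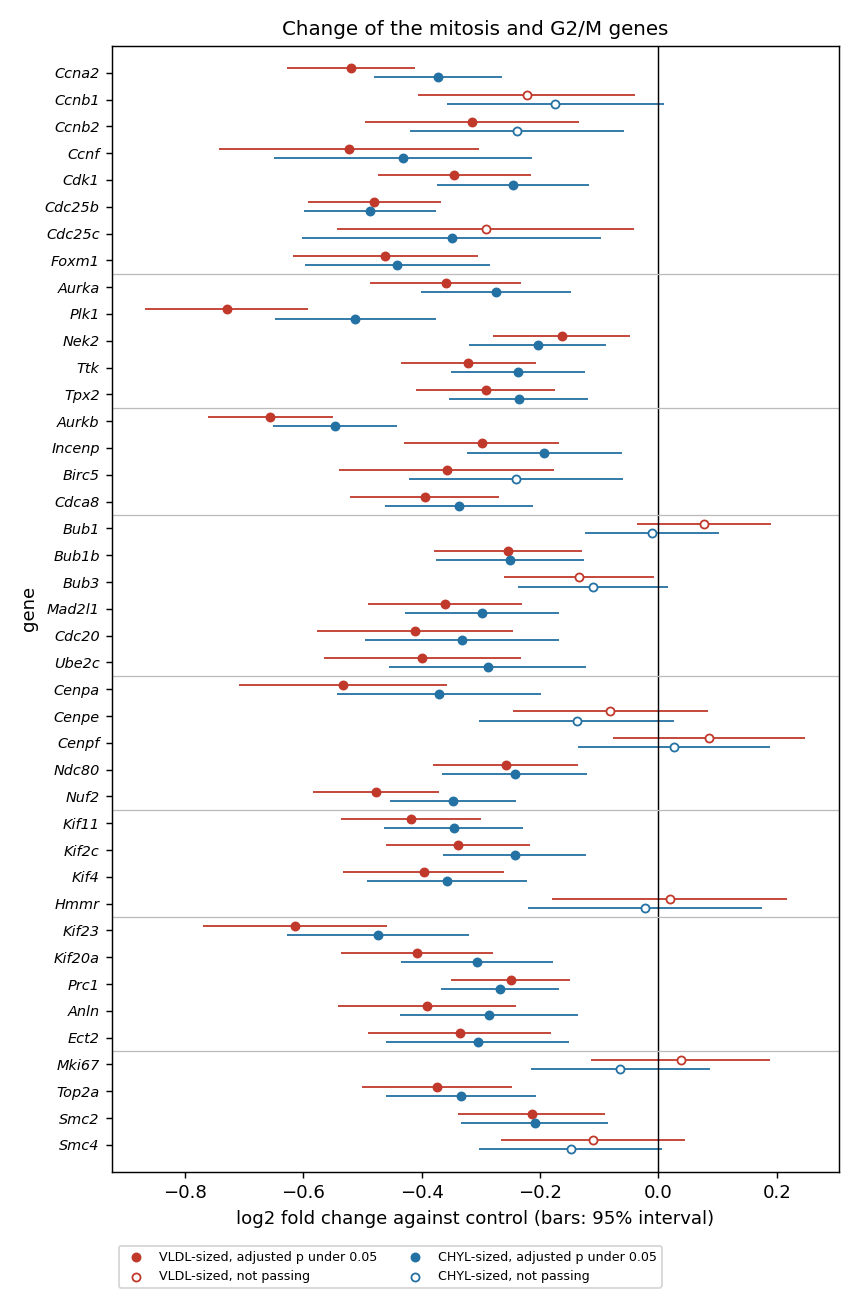
Log2 fold change of each of the 41 genes with its 95% interval after VLDL-sized and after CHYL-sized particles against the same 3 control libraries, grouped by role. The points lie between -0.73 and 0.09, and the 4 above 0 after VLDL-sized particles are Mki67, Bub1, Cenpf and Hmmr, all 4 of which are below 0 with scaling by library size alone.

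Across the 41 genes Pearson's r between the log2 fold change and the log2 length of the longest coding transcript was 0.480 after VLDL-sized and 0.417 after CHYL-sized particles, beside 0.021 and -0.016 over the 11286 genes tested that have a coding transcript. These are descriptions across genes, which are not independent replicates and share the same 9 libraries. The 3 longest transcripts, Cenpf (11130 bases), Mki67 (10061 bases) and Cenpe (7910 bases), were of genes that did not pass the test. The next longest, Mad2l1 (7557 bases), was of a gene that fell after both emulsions, while the shorter Ccnb1 (2489 bases) did not pass. Split at 4000 bases, the 26 shorter and the 15 longer genes both had a median of -0.35 after VLDL-sized particles. After CHYL-sized particles the medians were -0.27 for the shorter and -0.29 for the longer genes. The median coefficient of variation between the 3 libraries of a group was 4.84% in control, 5.49% after VLDL-sized and 4.31% after CHYL-sized particles.

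The difference between VLDL-sized and CHYL-sized particles, both labelled as 1 mM for 6 hours, was tested directly in the same model. With limma-voom 0 of the 41 genes and 0 of all genes tested passed (0.0%), as did 0 of the 41 with edgeR and with DESeq2. At an unadjusted p under 0.05, 4 of the 41 genes (Plk1, Ccna2, Nuf2 and Aurkb) and 6.43% of all genes tested were counted. The log2 fold change of VLDL-sized over CHYL-sized libraries ranged from -0.22 to 0.10, was negative in 31 of 41 genes and had a median of -0.06. Plk1 differed most, at -0.22 (95% interval -0.36 to -0.08, adjusted p = 0.57), followed by Ccna2 at -0.15 (-0.26 to -0.04, adjusted p = 0.63). In 7 genes (Plk1, Aurkb, Ccna2, Nuf2, Incenp, Kif2c and Kif20a) all VLDL-sized libraries lay below all CHYL-sized libraries, beside 5.63% of all genes tested. The 95% intervals of all 41 genes lay between -0.36 and 0.32, and a p that misses the threshold does not show that the emulsions acted alike.

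Other genes of the same processes were read from lists that do not include the 41. Of 166 other mitosis and G2/M genes, 86 fell and 11 rose after VLDL-sized particles, and 72 fell and 10 rose after CHYL-sized particles, with medians of -0.24 and -0.19. Beside these counts and those of each list below, 17.9% of all genes tested were lower and 17.8% higher after VLDL-sized particles. After CHYL-sized particles these shares were 13.0% and 12.7%. Kinetochore genes fell in 18 of 37 and 13 of 37 cases. Hjurp, the chaperone that loads CENPA, fell from 153 ± 2.16 to 97.0 ± 6.26 and 104 ± 1.33 cpm, and the spindle attachment gene Ska2 from 35.1 ± 1.2 to 25.3 ± 0.74 and 26.2 ± 1.00 cpm. Zwint, a kinetochore protein, moved the other way, from 65.5, 67.8 and 78.8 cpm in control to 138, 141 and 180.3 cpm after VLDL-sized and 126, 133 and 164 cpm after CHYL-sized particles. Replicate 3 was its highest library in each group, and no treated library overlapped control. It was the only gene of the kinetochore list that rose, at log2 fold changes of 1.11 (adjusted p = 7.6e-05) and 0.99 (adjusted p = 0.00026).

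Spindle genes fell in 22 of 35 and 19 of 35 cases and none rose, with the microtubule-associated genes Psrc1, Gtse1 and Kif18b at -0.81, -0.60 and -0.47 after VLDL-sized and -0.68, -0.47 and -0.44 after CHYL-sized particles on the log2 scale. Genes listed under cytokinesis fell in 8 of 11 and 7 of 11 cases. Pimreg was at -0.78 and -0.65 and Melk at -0.64 and -0.46, and their place in this list does not show a role in cytokinesis. Racgap1, the partner of KIF23 in centralspindlin, was at -0.37 and -0.28. Cohesin and condensin genes fell in 10 of 18 cases after each emulsion, led by the condensin subunits Ncapd2 at -0.59 and -0.48 and Ncaph at -0.57 and -0.44, and by Espl1, the protease separase that cleaves cohesin, at -0.53 and -0.47. Genes of the anaphase-promoting complex and its regulators fell in 6 of 17 and 4 of 17 cases, with the inhibitor Fbxo5 (EMI1) at -0.75 and -0.65 and the subunits Anapc15 and Cdc23 at -0.53 and -0.33 after VLDL-sized and -0.35 and -0.31 after CHYL-sized particles. The few genes of these lists that rose, named after their values were seen, were Sept7 (0.16), Wapl (0.34), Nipbl (0.24) and Anapc16 (0.28) after VLDL-sized and Wapl (0.23), Anapc10 (0.23) and Anapc16 (0.31) after CHYL-sized particles.

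Regulators of mitotic entry were mixed, with 11 of 26 lower and 6 higher after VLDL-sized particles and 8 lower and 6 higher after CHYL-sized particles. Of all genes tested, 17.9% were lower and 17.8% higher after VLDL-sized particles, and 13.0% and 12.7% after CHYL-sized particles. The kinases Wee1, which restrains CDK1, and Chek1, of the DNA damage checkpoint, fell by 0.58 and 0.64 on the log2 scale after VLDL-sized and by 0.52 and 0.48 after CHYL-sized particles, and Cdca2, a phosphatase subunit of mitotic exit, by 0.55 and 0.48. The genes that rose in both comparisons, named here after their values were seen, were Gadd45a, Gadd45g, Mdm2, Cdk7, Mnat1 and Cdkn1a. Gadd45a, a stress gene that can inhibit CDK1, rose from 4.34 ± 0.630 to 15.3 ± 3.51 and 11.8 ± 3.00 cpm. Mdm2, the ubiquitin ligase of p53 and a p53 target, rose from 91.0 ± 15.7 to 192 ± 25 and 162 ± 33.3 cpm, and Cdkn1a, which encodes the CDK inhibitor p21, from 95.2 ± 7.02 to 123 ± 6.52 and 119 ± 9.15 cpm. Trp53, which encodes p53 itself, was among the genes of this list that fell, at -0.39 and -0.27 on the log2 scale. The part of these genes in the lower levels of the 41 was not tested.

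Genes of the MuvB complex, of the RB family and of the MYB, E2F, DP and NF-Y factors fell in 11 of 22 cases after each emulsion and none rose. Of the MuvB genes Lin9 fell (-0.48 and -0.38 on the log2 scale), while Lin37, Lin52, Lin54 and Rbbp4 passed in neither comparison. Of the NF-Y genes only Nfyc passed, and only after VLDL-sized particles (-0.26), while Nfya and Nfyb passed in neither comparison. E2f8, a repressor among the E2F factors, changed most in this list, from 108, 105 and 118 cpm to 45.7, 41 and 43.5 cpm and to 51.8, 53.5 and 51.8 cpm, at log2 fold changes of -1.34 (adjusted p = 1.8e-07) and -1.07 (adjusted p = 9.0e-07). E2f2 was at -0.69 and -0.59 and E2f1 at -0.56 and -0.46. Genes of DNA replication in S phase, the phase before G2, fell in 43 of 47 cases after VLDL-sized and 37 of 47 after CHYL-sized particles, with medians of -0.53 and -0.41 beside -0.35 and -0.27 for the 41 genes. Uhrf1, which maintains DNA methylation at replication forks, fell from 346 ± 20.5 to 163 ± 3.02 and 194 ± 3.54 cpm. Mcm4, a subunit of the replicative helicase, was at -0.75 and -0.58, and Ccne2, cyclin E2, at -0.88 and -0.61. Whether the S-phase genes fell further than the mitosis genes was not tested.

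**Figure D5:**
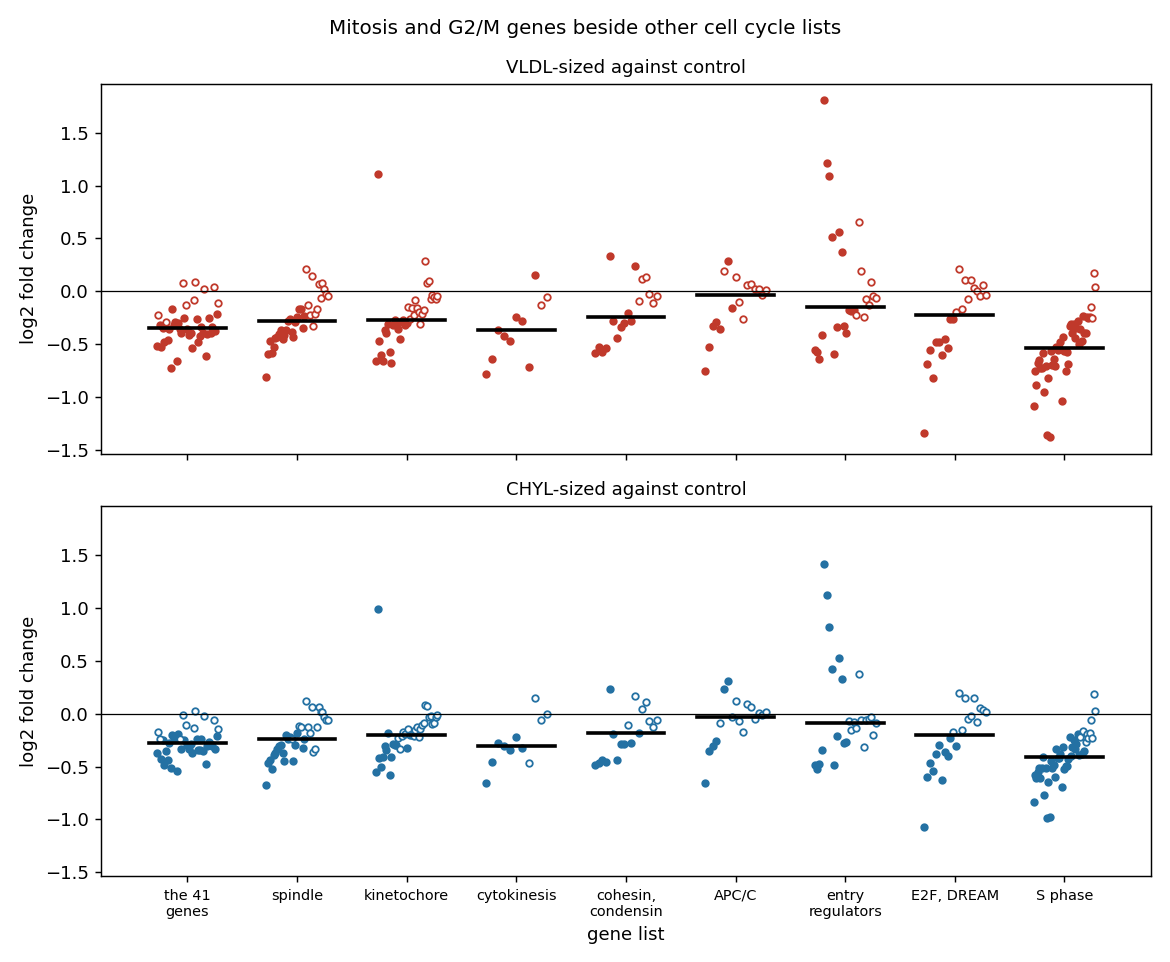
Log2 fold changes of every gene in the 41-gene list, the 7 other lists of mitosis and G2/M genes and the S-phase list after VLDL-sized and CHYL-sized particles (points), with the median of each list (bar). Filled points passed the test and open points did not. Medians of all lists are below 0, lowest for S-phase genes at -0.53 and -0.41, and the 4 genes above 1 after VLDL-sized particles are Zwint, Gadd45a, Gadd45g and Mdm2.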

How the data were processed

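RNAseq was measured in 9 libraries of RAW 264.7 cells, and group and replicate number came from the sample labels. The authors deposited estimated counts per gene, made with Salmon 0.14.1 against GENCODE transcripts of GRCm38.p6 and summarized with tximport. Length and library size scaling is named in the methods, but 58.3% of deposited values above 10 were whole as written, with no tolerance, and all were taken as unscaled. Estimated counts were rounded for edgeR and DESeq2. Symbols were matched for 54346 of 54432 identifiers. GENCODE (GRCm38) gave coordinates and lengths. Reads of genes with pseudogenes or overlapping genes may have been split, which makes such levels uncertain.

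The 12637 genes above 10 counts in 3 or more libraries were tested in R 4.3.3 with limma 3.58.1 on voom-weighted log2 cpm after TMM normalization (edgeR 4.0.16), in 1 model of all 9 libraries without a block. P-values were adjusted by the Benjamini-Hochberg method over all genes tested, two-sided, and adjusted p under 0.05 was called. The study's methods name the same filter and tools. Each mean ± SD is over the cpm of 3 libraries. DESeq2 1.42.0, edgeR's quasi-likelihood test, other normalizations, filters and left-out libraries were the alternatives. No replicate pair was a duplicate, since differences were 3.03 to 13.7 times the Poisson variance.

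The 41 genes and the other lists were chosen with earlier results of these data known. Values in every library are given for 8 fixed genes (Mki67, Top2a, Ccnb1, Cdk1, Plk1, Foxm1, Cdc20 and Aurka) and the 12 others with the smallest adjusted p. Those of Bub1 were added after its values were seen. From each other list the 3 called genes with the smallest adjusted p were named. In simulated data on 12637 genes for VLDL-sized particles against control, 63.0% of 54 genes over 500 counts changed by 0.35 on the log2 scale were recovered, and for CHYL-sized particles 50.8% of 59. In each comparison 100 genes were changed by 0.35 and 100 by 1, whereas 4500 and 3249 genes were called in the data. With fewer changed genes the adjusted p threshold is stricter, so recovery in the data may differ. Promoters were RefSeq windows (GRCm38.p6), and the first entry per symbol was used.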

Additional observations from a re-analysis of the deposited data

How the results depend on the processing

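Of the 32 genes that fell after VLDL-sized particles, 30 were called under all 16 alternatives, and of the 31 after CHYL-sized particles, 26 were. The calls lost under at least 1 alternative were those of Nek2 and Ccnb2 after VLDL-sized particles and of Cdc25c, Incenp, Smc2, Nek2 and Ube2c after CHYL-sized particles. Leaving out 1 library at a time gave 30 to 34 genes lower after VLDL-sized and 27 to 30 after CHYL-sized particles. The lowest counts came without VLDL-sized replicate 2 and without CHYL-sized replicate 1 or 2. The shares of all genes tested that were lower in these fits are not given here. With scaling by library size alone the medians of the 41 genes were -0.44 and -0.35, beside -0.09 and -0.08 for all genes. The correlation of deviations between same-numbered libraries was 0.217 to 0.277 for replicate 3 and 0 to 0.101 for replicates 1 and 2, so the replicate 3 libraries deviated together, while pairing was not shown for the others. A fit with the replicate number as a block called 4949 genes after CHYL-sized particles (3249 without it), 34 and 35 of the 41 genes lower, adding Ccnb1 (adjusted p = 0.00051) and Cdc25c (0.016) after VLDL-sized and Ccnb1 (0.0036), Ccnb2 (0.00073), Birc5 (0.00089) and Smc4 (0.033) after CHYL-sized particles, and 147 genes between VLDL-sized and CHYL-sized particles, where 0 passed without it. Between the emulsions DESeq2 called 24 genes, a fit without the 3 replicate 3 libraries 232 and fits without 1 library 0 to 1, none of them among the 41. The cause of these differences was not tested. Restricting promoters to the bases before the start gave TTTGAA in 36.4% of the genes. Against control, signs changed only in genes that did not pass. With library size alone, Bub1 (-0.0166), Cenpf (-0.0073), Hmmr (-0.074) and Mki67 (-0.0557) after VLDL-sized and Cenpf (-0.0535) after CHYL-sized particles changed sign. Without 1 library, Hmmr ranged from -0.038 to 0.0943 after VLDL-sized particles, and after CHYL-sized particles Hmmr ranged from -0.1061 to 0.0524, Bub1 from -0.0415 to 0.0091, Cenpf from -0.0421 to 0.0614 and Mki67 from -0.1292 to 0.008. With 3 libraries a group, changes of 0.35 on the log2 scale were not always recovered in simulation. Fewer genes were changed there than were called in the data, so recovery in the data may differ.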
